A study of Mus musculus with 8 samples.

Results

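Aminoacyl-tRNA synthetases join each amino acid to its tRNA, the step that supplies charged tRNA to the ribosome. The 36 genes described here were chosen by symbol and all 36 were found among the 52459 genes listed, 20 for cytosolic enzymes and 16 for mitochondrial enzymes, whose symbols end in 2. All 36 had a mean of at least 10 normalized counts and so were among the 15419 genes tested. RNA was sequenced from CD4+CD25hi regulatory T (Treg) cells, a T cell subset that restrains immune responses, sorted from spleen and lymph nodes of C57BL/6 mice. Cells labelled WT or Stim1/2-deficient were left unstimulated or were stimulated for 16 h with 1 µg/ml of plate-bound anti-CD3/CD28, with 2 libraries in each of the 4 groups. STIM1 and STIM2 sense calcium in the endoplasmic reticulum and open the ORAI channels of store-operated calcium entry.

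According to the methods, both genotypes came from heterozygous females carrying floxed Stim1, floxed Stim2 and the X-linked Foxp3-YFPcre allele. WT cells were the YFPcre- and deficient cells the YFPcre+ cells of such mice, so that deletion, driven from the Foxp3 promoter, was bound to the Cre allele, and WT Treg cells carried the floxed genes too. Mice were pooled for each sample, so each replicate is a pool, and p-values measure the spread between such pools. Whether the pools of a group differed in mice or day is not given in the sources used here. Age is not given for these samples in the labels. The unstimulated WT libraries are replicates 3 and 4 and every other group has replicates 1 and 2. In unstimulated cells, genotype thus goes with the replicate numbers. A genotype effect there cannot be told apart from a difference between the replicates so numbered. The same holds for stimulation of WT cells, and the interaction includes the same libraries. The library names place all unstimulated libraries in one sequencing lane and all stimulated libraries in another, so an effect of stimulation and a lane effect cannot be told apart.

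The 8 libraries held 11851853 to 16306540 reads on genes. The values are normalized counts, which are reads per gene divided by 1 size factor per library, and 1 read equalled 0.759 to 1.48 normalized counts. Among the 36 genes, the library with the fewest reads had 18 reads on Pars2, 20 on Aars2 and 20 on Sars2, so these 3 are the least precise. The transcripts of the targeted genes were not called lower in the libraries labelled deficient. Stim1 was at 1139 and 1377 normalized counts in unstimulated WT libraries and at 1538 and 1868 in those labelled deficient, and Stim2 was at 906 and 908 against 904 and 744. Counts over a whole gene do not separate deleted from intact exons, so they could not check the labels, and "deficient" below means the libraries labelled so. The study itself reported that YFP+ Treg cells of such heterozygous females lacked store-operated calcium entry. In Treg cells of males it reported loss of Stim1 and Stim2 expression by RT-PCR. Transcripts of other cells also moved with genotype in unstimulated cells. The sum of 9 macrophage marker transcripts, among them C1qa, Cd5l and Mrc1, was 124 and 146 in the WT pair without stimulation, against 9397 in deficient replicate 1 and 1283 in deficient replicate 2, and it was 35.5 to 85.0 in the 4 stimulated libraries. The 5 plasma cell markers summed to 237 and 474 in unstimulated WT libraries and to 6902 and 1989 in deficient libraries, and the 8 B cell markers to 290 and 329 against 3020 and 709. In stimulated libraries replicate 1 had the higher sum in both genotypes for most of these lists, but not for all. Plasma cell markers were at 1432.5 and 283 in WT and at 2334 and 514 in deficient libraries. B cell markers were at 923 and 175 against 1336 and 275. The 4 CD8 T and NK cell markers were at 370 and 202 against 802 and 245, and the 4 neutrophil markers at 563 and 274 against 837 and 127. Replicate 2 had the higher sum of the 5 erythroid markers (119 and 181 in WT, 84.2 and 85.3 in deficient libraries). Its sum was also higher for the Treg cell markers described next (95716 and 113728 in WT, 69055 and 86914 in deficient libraries). The 7 Treg cell markers, Foxp3 among them, summed to 93406 and 86915 in unstimulated WT libraries and to 41194 and 48904 in deficient libraries, and all 7 were detected in every group. All 7 were lower by log2 fold change, by unlike amounts. Ctla4 was at 37404 and 35119 in WT and at 6338 and 17333 in deficient libraries. Cd3e was at 3424 and 3294 against 3042 and 3156, and Cd4 at 10760 and 8918 against 10363 and 7005. The study lists Foxp3, Ctla4, Ikzf2 and Il2ra among genes that depend on STIM1 and STIM2. In a bulk sample, fewer cells of a type and less RNA per cell cannot be told apart.

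Cytosolic synthetases work on the tRNAs of nuclear genes, and 8 of the 20 (Dars, Eprs, Iars, Kars, Lars, Mars, Qars and Rars) belong to the multi-synthetase complex, which is held together by the scaffold proteins AIMP1, AIMP2 and EEF1E1. Eprs encodes one protein with both the glutamate and the proline enzyme, and Farsa and Farsb encode the subunits of the phenylalanine enzyme. Gars and Kars each serve both the cytosol and mitochondria. Mitochondrial synthetases are also encoded in the nucleus and are imported to charge the tRNAs of the mitochondrial genome, which translate subunits of the respiratory chain. When amino acids are short or the endoplasmic reticulum is stressed, the transcription factor ATF4 raises genes of amino acid synthesis and uptake together with many cytosolic synthetases. Activated T cells raise amino acid uptake and protein synthesis, partly through MYC, which binds E-boxes.

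Promoter sequences from RefSeq on GRCm38.p6, 250 bases before to 50 bases from the start of transcription on, matched 27 of the 36 genes, 13 cytosolic (Mars under the symbol Mars1) and 14 mitochondrial, for which 15 promoters were listed. Cars, Hars, Lars, Nars, Rars, Vars, Wars, Hars2 and Pars2 had no matched promoter and were not searched. The core of the ATF4 element, TGATGNAA, was searched on both strands. It was present in 5 of the 13 cytosolic promoters and in 0 of the 15 mitochondrial promoters, against 3.97% of all 32851 promoters of the table. The 5 genes were Aars, Gars, Iars, Tars and Yars, all among the 12 cytosolic genes that are known as ATF4 targets. A match in each is shown because these members are set apart as a group in the results, each 5′ to 3′ on the strand of the gene with the matched bases in capitals, which read the core on the opposite strand in all but Yars.
Aars, chr8:111033841-111033868, plus strand: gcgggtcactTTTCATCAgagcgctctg
Gars, chr6:55037961-55037988, plus strand: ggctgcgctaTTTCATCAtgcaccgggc
Iars, chr13:49682127-49682154, plus strand: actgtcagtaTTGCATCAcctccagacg
Tars, chr15:11399656-11399683, minus strand: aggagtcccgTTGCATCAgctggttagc
Yars, chr4:129189896-129189923, plus strand: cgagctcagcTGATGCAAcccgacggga
Counting the start of transcription as position 1, the matched bases shown began at position 10 in Aars, 30 bases upstream of the start in Gars, at position 8 in Iars, 15 bases upstream in Tars and at position 4 in Yars. The E-box CACGTG, which reads the same on both strands and does not overlap the matches above, was present in 4 of the 13 cytosolic promoters (Aars, Iars, Tars and Farsb) and in 1 of the 15 mitochondrial promoters (Ears2), against 7.15% of all promoters.
Farsb, E-box, chr1:78488921-78488946, minus strand: agacaggcatCACGTGagacagccca
Ears2, E-box, chr7:122067050-122067075, minus strand: cgaaggagccCACGTGtgtgtttcta
These letters are a description of the windows and do not show that a factor was bound.

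Cytosolic synthetases were the more abundant class per length in every group. In unstimulated WT cells the median was 310 normalized counts per kilobase of exon for the 20 cytosolic genes, with Eprs at 1504 and Nars, the asparagine enzyme, at 1383 as the highest and Farsa at 75.4 as the lowest. The median of the 16 mitochondrial genes was 61.1 per kilobase, from 10.4 for Aars2 to 381 for Lars2, the leucine enzyme. The group medians were 551 and 98.2 per kilobase in stimulated WT cells, 250 and 84.3 in unstimulated deficient cells, and 513 and 93.8 in stimulated deficient cells for the cytosolic and the mitochondrial genes, respectively. Unstimulated deficient cells thus had the lowest cytosolic median of the 4 groups, whereas their mitochondrial median lay above that of unstimulated WT cells.

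**Figure D1:**
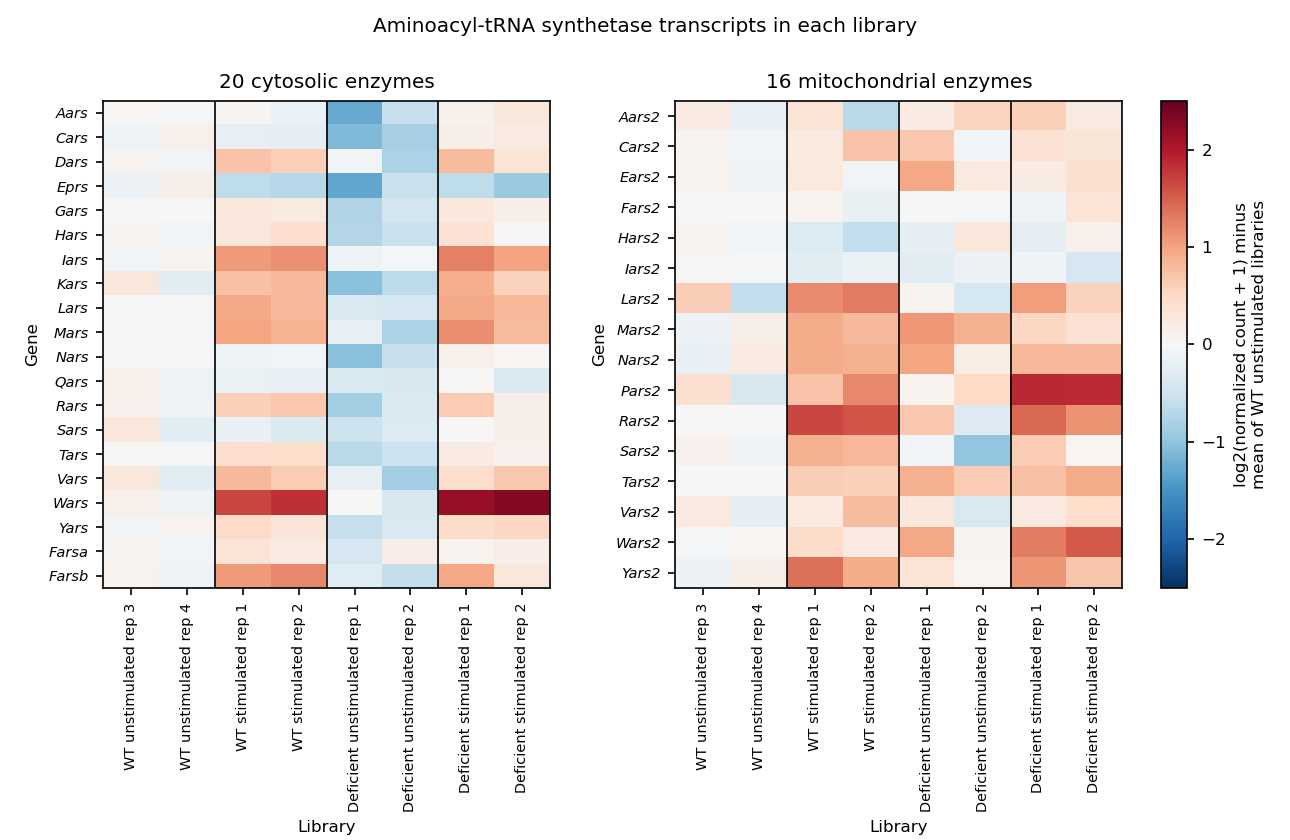
Level of each gene (rows) in each library (columns), as the difference of log2(normalized count + 1) from the mean of the unstimulated WT libraries, red for higher and blue for lower. In the columns of unstimulated deficient replicates 1 and 2 most cytosolic genes are blue, the mitochondrial genes are mixed with more red than blue, and Wars has the deepest red of the cytosolic genes in all 4 stimulated libraries.

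The first comparison asked how the absence of STIM1 and STIM2 bears on these transcripts without stimulation. All 20 cytosolic genes had a negative log2 fold change of deficient over WT (median -0.52, range -0.97 to -0.07), and 19, 18 and 19 of the 20 were negative with libraries rescaled to equal totals, with equal upper quartiles and with quantile normalization. Over all 15419 genes, 50.3% were negative and the median was -0.01. Of the 16 mitochondrial genes, 5 were negative and 11 positive, against 49.7% of all genes positive (median 0.24, range -0.53 to 0.98), and with the same 3 rescalings 13, 13 and 12 were positive. Only 3 of the 36 genes were called, that is, reached an adjusted p under 0.05 (limma, Benjamini-Hochberg over all genes tested) with more than a 1.5-fold change. Cars and Nars were lower, 2 of the 20 cytosolic genes against 3.35% of all genes called lower, and Mars2 was higher, 1 of the 16 mitochondrial genes against 1.38% of all genes called higher.

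Cars charges tRNA with cysteine. It was at 524 and 622 normalized counts in unstimulated WT libraries and at 264 and 322 in deficient libraries. Both deficient libraries lay below both WT libraries, and Cars was 1.96-fold lower (log2 fold change -0.97 ± 0.21 SE, adjusted p = 0.0347). Nars was at 3687 and 3593 in WT and at 1773 and 2447 in deficient libraries, with no overlap, and was 1.75-fold lower (log2 fold change -0.80 ± 0.19 SE, adjusted p = 0.0423). Mars2, the mitochondrial methionine enzyme, was at 340 and 417 in WT and at 798 and 696 in deficient libraries. Both deficient libraries lay above both WT libraries, and Mars2 was 1.98-fold higher (log2 fold change 0.98 ± 0.21 SE, adjusted p = 0.0310). Calls at 2 libraries a group were not stable. Of 10 other fits, 5 called Cars, 5 called Nars and 8 called Mars2. The share of all genes called in these fits varied too, from 0.865% to 5.81% lower and from 0.303% to 3.38% higher. Over all fits, also those with 1 of the 8 libraries left out, the log2 fold change was -1.11 to -0.80 for Cars. It was -1.04 to -0.57 for Nars and 0.84 to 1.15 for Mars2. Without unstimulated deficient replicate 2, that group was replicate 1 alone, the library with the highest macrophage, plasma cell and B cell marker sums. The cytosolic median was then -0.56 and the mitochondrial median 0.31.

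Next to Cars, the cytosolic genes with the largest differences were Eprs and Aars, the alanine enzyme, neither of them called. Eprs was at 9670 and 11979 normalized counts in WT and at 4380 and 7309 in deficient libraries (log2 fold change -0.93 ± 0.24 SE, adjusted p = 0.0602). Aars was at 1098 and 1025 in WT and at 445 and 712 in deficient libraries (log2 fold change -0.91 ± 0.24 SE, adjusted p = 0.0608). In both genes the lower value of the deficient libraries was that of replicate 1, the library with the most macrophage transcripts. In other cytosolic genes it was that of replicate 2. Among these, Dars was at 923 and 561, Mars at 517 and 343 and Vars at 387 and 246 in replicates 1 and 2. The part of macrophage transcripts in these values was not tested. Kars, for lysine, was at 1439 and 959 in WT and at 571 and 741 in deficient libraries (log2 fold change -0.85). The smallest cytosolic differences were those of Iars, for isoleucine, at 1502 and 1657 against 1484 and 1529, and of Farsa, at 356 and 328 against 256 and 382. Both groups of libraries overlapped in these 2 genes.

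For 16 of the 20 cytosolic genes both deficient libraries lay below both WT libraries, against 27.1% of all genes, and for 0 both lay above. At an unadjusted p under 0.05, 11 of the 20 were lower, against 12.4% of all genes. The differences were spread over the kinds of cytosolic enzyme. The median was -0.47 over the 8 genes of the multi-synthetase complex and -0.57 over the 12 outside it, -0.55 over the 12 known ATF4 targets and -0.49 over the other 8, and -0.49 over the 18 genes left without Gars and Kars. The 5 genes with an ATF4 core in the promoter ranged from Aars at -0.91 through Gars at -0.61, Tars at -0.60 and Yars at -0.48 to Iars at -0.07. Cars and Nars, the cytosolic genes called, had no matched promoter, so whether they hold a core is not known here.

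Among mitochondrial genes, Tars2 and Ears2 followed Mars2. Tars2, for threonine, was at 462 and 459 in WT and at 853 and 716 in deficient libraries (log2 fold change 0.76 ± 0.20 SE, adjusted p = 0.0576). Ears2, for glutamate, was at 146 and 129 in WT and at 269 and 163 in deficient libraries (log2 fold change 0.61 ± 0.32 SE, adjusted p = 0.287). Both missed the threshold, although the libraries of the 2 genotypes did not overlap in either. Both deficient libraries lay above both WT libraries in 4 of the 16 genes (Ears2, Mars2, Tars2 and Wars2), against 26.5% of all genes, and below them in 2 (Fars2 and Iars2). Several mitochondrial genes differed between the 2 deficient libraries. Nars2 was at 449 in replicate 1 and 256 in replicate 2, Rars2 at 207 and 103, and Wars2 at 234 and 126, against 195 and 260, 127 and 130, and 114 and 124 in WT libraries. Without deficient replicate 1 the mitochondrial median was 0.06 and without replicate 2 it was 0.31, while the cytosolic median was -0.55 and -0.56.

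**Figure D2:**
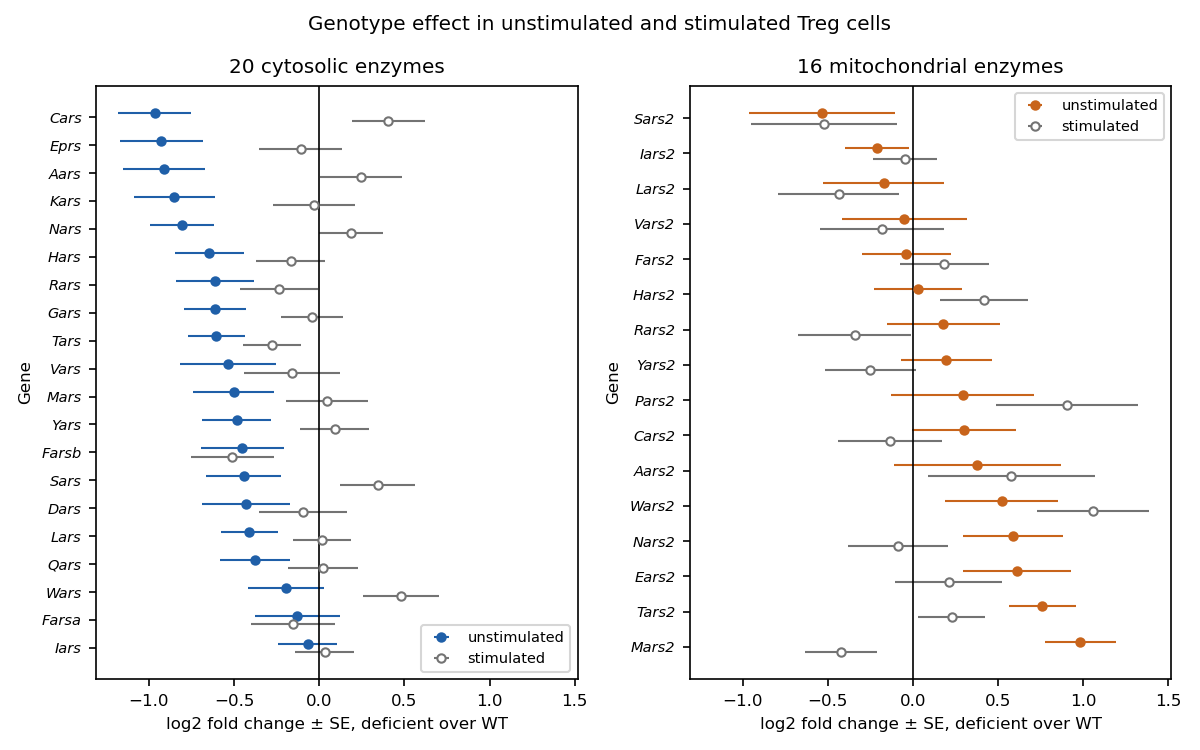
Log2 fold change of deficient over WT with its SE for each gene (rows), filled points for unstimulated and open points for stimulated cells, 2 libraries a group. All 20 filled cytosolic points lie left of 0 and 11 of 16 filled mitochondrial points lie right of it, whereas the open points lie on both sides of 0 in both classes.

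Where both compartments have their own enzyme, the 2 genes could be set side by side, with Eprs as the partner of both Ears2 and Pars2 and Farsa of Fars2. In unstimulated cells the log2 fold change of the mitochondrial gene was above that of its cytosolic partner in 14 of 16 pairs, with a median difference of 0.75. The difference was 1.54 for Ears2 and Eprs, 1.49 for Mars2 and Mars and 1.39 for Nars2 and Nars. The exceptions were Iars2 and Iars at -0.14 and Sars2 and Sars at -0.09. In stimulated cells it was above in 7 and below in 9 pairs, with a median difference of -0.05.

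Summed over genes, the 20 cytosolic transcripts came to 31542 and 32169 normalized counts in unstimulated WT libraries and to 18096 and 22350 in deficient libraries. The 16 mitochondrial transcripts came to 6166 and 4981 in WT and to 6775 and 5636 in deficient libraries. The cytosolic sums did not overlap between genotypes and the mitochondrial sums did. The ratio of the sums was 5.12 and 6.46 in WT and 2.67 and 3.97 in deficient libraries. Eprs and Lars2 make up a large part of their classes, and without them the ratios were 5.35 and 4.92 in WT and 2.57 and 3.25 in deficient libraries. In stimulated cells the ratio was 4.29 and 4.22 in WT and 4.66 and 4.55 in deficient libraries, and 5.43, 5.66, 5.76 and 5.20 without Eprs and Lars2. The 2 unstimulated deficient libraries thus had the lowest ratios of the 8 by either sum. The macrophage, plasma cell and Treg cell marker sums given above move with genotype in the same libraries, and their part in these differences was not tested. Within the deficient pair, replicate 1 had both the higher macrophage sum and the lower ratio.

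**Figure D3:**
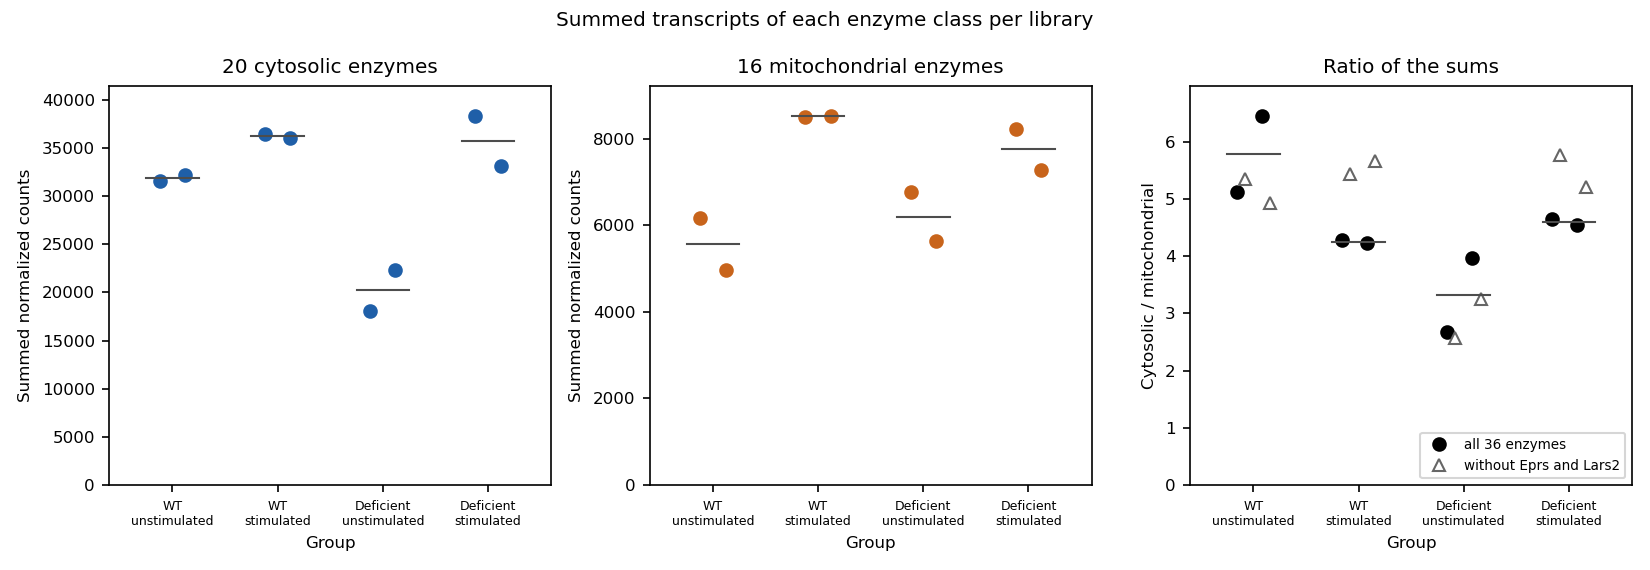
Summed normalized counts of the cytosolic and of the mitochondrial genes, and their ratio, for each library (points) by group, with the mean of the 2 libraries as a line (for all 36 genes in the ratio panel); open triangles are ratios without Eprs and Lars2. The cytosolic sums of unstimulated deficient libraries, 18096 and 22350, lie below the other 6, and the mitochondrial sums of the 2 unstimulated groups overlap.

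After stimulation for 16 h, the same comparison of genotypes called 0 of the 36 genes (limma), against 0.110% of all genes called lower and 0.162% called higher. DESeq2 called 0 of the 36, against 1.94% of all genes lower and 1.63% higher. With edgeR 0 were called too, but so few of all genes were (0% lower, 0.00649% higher) that this says little about the members. At an unadjusted p under 0.05 there was 1 gene, Wars2, against 7.38% of all genes lower and 6.36% higher. The 20 cytosolic genes were split into 10 negative and 10 positive (median -0.01, range -0.51 to 0.48), and the 16 mitochondrial genes into 9 negative and 7 positive (median -0.07, range -0.52 to 1.06). The median of all genes was 0.02. The largest cytosolic differences were those of Farsb, Wars and Cars. Farsb was at 1835 and 2011 in WT and at 1714 and 1062 in deficient libraries (log2 fold change -0.51 ± 0.24 SE, adjusted p = 0.396). Wars, for tryptophan, was at 966 and 1077 in WT and at 1363 and 1489 in deficient libraries (log2 fold change 0.48 ± 0.22 SE, adjusted p = 0.374). Cars, lower without stimulation, was at 493 and 482 in WT and at 629 and 664 in deficient libraries (log2 fold change 0.41 ± 0.21 SE, adjusted p = 0.445). In Wars and Cars both deficient libraries lay above both WT libraries, and in Farsb both lay below. Such separation was common. Of the 20 cytosolic genes, 5 lay wholly above, against 24.3% of all genes, and 3 wholly below, against 23.1%.

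Among mitochondrial genes in stimulated cells, Wars2 was at 165 and 138 in WT and at 290 and 344 in deficient libraries (log2 fold change 1.06 ± 0.33 SE, adjusted p = 0.178). Pars2, for proline, was at 59.2 and 83.5 in WT and at 133 and 132 in deficient libraries (log2 fold change 0.90 ± 0.42 SE, adjusted p = 0.378). Aars2 was at 43.6 and 21.3 against 52.4 and 40.5 (log2 fold change 0.58 ± 0.49 SE, adjusted p = 0.660). Both tryptophan enzymes, Wars and Wars2, thus had their higher values in stimulated deficient libraries, without reaching the threshold. With 2 libraries a group, a missed threshold does not show equal levels.

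Whether the genotype effect itself differed between unstimulated and stimulated cells was tested as an interaction, which called 0 of 15419 genes and 0 of the 36 (limma). edgeR called 0 genes as well, and DESeq2 called 13 genes in the negative direction, Mars2 among them, and 37 in the positive direction. Of the 36, 8 had an unadjusted p under 0.05, 7 cytosolic genes with a positive interaction (a genotype effect less negative after stimulation) and Mars2 with a negative one. The unadjusted calls over all genes were 4.60% in the positive and 3.55% in the negative direction. The interaction was positive in 18 of the 20 cytosolic genes, against 53.4% of all genes, with a median of 0.51, and its median was -0.20 over the 16 mitochondrial genes. Cars had the largest value of the cytosolic genes, 1.37 ± 0.30 SE on the log2 scale (adjusted p = 0.506). All 12 known ATF4 targets had a positive value, with a median of 0.63, and 6 of the other 8 had one, with a median of 0.38. Without unstimulated deficient replicate 2, that group was replicate 1 alone, the library with the highest macrophage marker sum. The medians were then 0.52 for the cytosolic and -0.49 for the mitochondrial genes.

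Stimulation of WT cells raised some synthetases of either class. Of the 20 cytosolic genes, 6 were called higher (Iars, Kars, Lars, Mars, Wars and Farsb) and 0 lower, and of the 16 mitochondrial genes 5 were called higher (Lars2, Mars2, Nars2, Rars2 and Yars2) and 0 lower, against 10.2% of all genes called higher and 13.1% called lower. The medians were 0.41 and 0.56, and 0.01 over all genes. Of the 6 cytosolic genes, 4 belong to the multi-synthetase complex. Wars rose most, from 330 and 276 to 966 and 1077 normalized counts (log2 fold change 1.75 ± 0.22 SE, adjusted p = 0.00112). Farsb rose from 925 and 821 to 1835 and 2011 (1.14 ± 0.24) and Iars from 1502 and 1657 to 3298 and 3501 (1.11 ± 0.17). Mars, for methionine, rose by 0.92 ± 0.24, Lars, for leucine, by 0.87 ± 0.17 and Kars by 0.77 ± 0.24. The adjusted p of the latter 5 lay between 0.00268 for Iars and 0.0418 for Kars.

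Of the mitochondrial genes, Rars2, for arginine, rose most in WT cells, from 127 and 130 to 412 and 385 normalized counts (log2 fold change 1.62 ± 0.33 SE, adjusted p = 0.00810). Lars2 rose from 2080 and 880 to 3072 and 3329 (1.24 ± 0.36, adjusted p = 0.0307), and its unstimulated WT libraries differed by more than 2-fold. Yars2, for tyrosine, rose from 210 and 256 to 604 and 440 (1.15 ± 0.27), Nars2 from 195 and 260 to 429 and 417 (0.90 ± 0.29) and Mars2 from 340 and 417 to 716 and 659 (0.87 ± 0.21). Several cytosolic genes did not pass the test in WT cells. Eprs was at 9670 and 11979 without and at 6959 and 6572 with stimulation (log2 fold change -0.67, adjusted p = 0.0715), and it was called lower with DESeq2 and in the fit of the 4 WT libraries alone. Nars, Aars and Cars had log2 fold changes of -0.10, -0.05 and -0.23.

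In libraries labelled deficient, stimulation raised most of the cytosolic class. Of the 20 genes, 16 were called higher, against 13.0% of all genes, and 0 lower, and all 20 were positive (median 1.00, range 0.15 to 2.43). The 4 not called were Eprs, Qars, Sars and Farsa, at 0.15, 0.21, 0.52 and 0.26. Of the 16 mitochondrial genes, 2 were called higher (Pars2 and Rars2) and 0 lower (12.0% of all genes were called lower), with a median of 0.20. Wars again rose most, from 304 and 228 to 1363 and 1489 normalized counts (log2 fold change 2.43 ± 0.22 SE, adjusted p = 0.000239). Kars rose from 571 and 741 to 2199 and 1748 (1.59 ± 0.24, adjusted p = 0.00181) and Mars from 517 and 343 to 1332 and 1029 (1.47 ± 0.24, adjusted p = 0.00253). Lars followed at 1.30 ± 0.17 and Iars at 1.20 ± 0.17.

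Cars, Aars and Nars, not called in WT cells, were called higher in deficient cells. Cars rose from 264 and 322 to 629 and 664 normalized counts (log2 fold change 1.15 ± 0.21 SE, adjusted p = 0.00478). Aars rose from 445 and 712 to 1138 and 1293 (1.11 ± 0.24, adjusted p = 0.00927) and Nars from 1773 and 2447 to 3995 and 3741 (0.89 ± 0.19, adjusted p = 0.00812). None of the 3 was called between genotypes after stimulation. The unstimulated deficient libraries enter both this comparison and the genotype comparison above, so the 2 results are not independent. The remaining 8 cytosolic genes called (Farsb, Vars, Rars, Dars, Yars, Hars, Gars and Tars) rose by 0.76 to 1.09 on the log2 scale, with adjusted p from 0.00743 to 0.0194. Pars2 rose from 37.8 and 50.8 to 133 and 132 (1.58 ± 0.42, adjusted p = 0.0212) and Rars2 from 207 and 103 to 352 and 280 (1.10 ± 0.33, adjusted p = 0.0353). Mars2 was at 798 and 696 without and at 541 and 486 with stimulation (-0.54 ± 0.21, adjusted p = 0.0855), whereas it rose in WT cells. The macrophage markers, 9397 and 1283 normalized counts in unstimulated deficient libraries, were at 78.6 and 35.5 after stimulation, with 3 of the 9 genes at 0 in both libraries, and their part in the effect of stimulation was not tested.

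**Figure D4:**
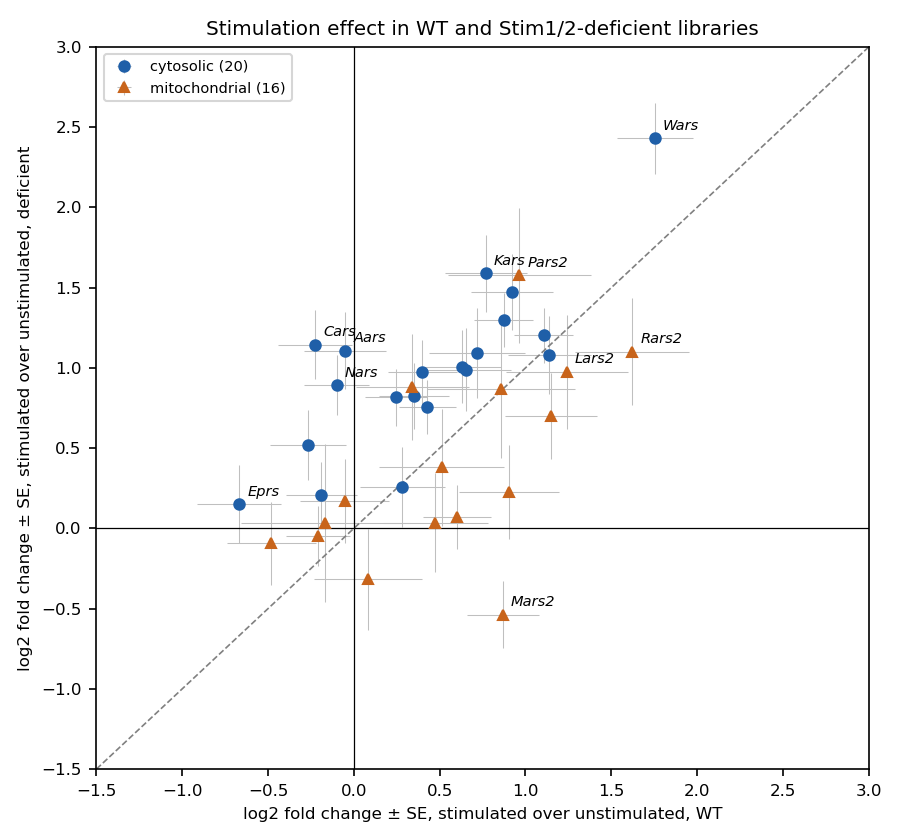
Log2 fold change with stimulation and its SE in WT (x axis) and in deficient libraries (y axis) for each gene, circles for cytosolic and triangles for mitochondrial enzymes, with equal change on the dashed line. Cars, Aars, Nars and Eprs lie at or left of 0 on the x axis and above 0 on the y axis, Wars is highest on both axes, and Mars2 is positive in WT and negative in deficient libraries.

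How these counts depended on scaling bears on their size. With libraries rescaled to equal totals, the median of all genes moved to 0.52 for stimulation of WT cells and to 0.35 for stimulation of deficient cells, and the class medians moved with it, to 0.93 and 1.07 in WT and to 1.39 and 0.59 in deficient cells for the cytosolic and the mitochondrial genes. In WT cells, 14 cytosolic genes and 9 mitochondrial genes were then called higher, against 27.6% of all genes (10.2% before). In deficient cells, only 6 cytosolic genes and 1 mitochondrial gene were called higher when the fit held the 4 libraries of that comparison alone, against 5.71% of all genes.

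Other genes of tRNA charging were examined by lists. Over all genes tested, 10.2% were called higher on stimulation of WT cells and 13.0% on stimulation of deficient cells. Of the 3 scaffold genes of the multi-synthetase complex, Aimp2 and Eef1e1 were called higher on stimulation of WT cells and all 3 in deficient cells. Eef1e1 rose from 111 and 127 to 574 and 629 normalized counts in WT libraries and from 109 and 110 to 548 and 355 in deficient libraries. None of the 3 was called between genotypes. Of the mitochondrial charging partners, Gatc and Qrsl1, which serve in the making of glutaminyl-tRNA, and Mtfmt, which formylates methionyl-tRNA, were called higher on stimulation of WT cells, and Qrsl1 alone in deficient cells, while Gatb was not called in either. None of these 4 was called between genotypes. Of 6 genes for editing and related enzymes, 1 (Prorsd1) was called, on stimulation of deficient cells. Xpot, the exporter of tRNA from the nucleus, was called higher on stimulation in both genotypes, by 1.17 in WT and 1.21 in deficient cells on the log2 scale, and Trnt1, which adds the CCA end of tRNA, was not called.

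Elongation factors, which take charged tRNA to the ribosome, were examined likewise, and the same shares of all genes apply to the stimulation calls. The 5 cytosolic factors all had negative genotype log2 fold changes in unstimulated cells (median -0.32), with 0 called, and on stimulation Eef1g was called higher in WT cells and Eef1d and Eef1g in deficient cells. Of the 5 mitochondrial translation factors, 4 had negative genotype log2 fold changes (median -0.38), with 0 called, and Tsfm and Gfm1 were called higher on stimulation in both genotypes, Tufm in deficient cells. Myc rose with stimulation from 1128 and 1077 to 4677 and 5418 normalized counts in WT libraries and from 1573 and 892 to 4710 and 4725 in deficient libraries, and it was not called between genotypes (log2 fold change 0.10 and -0.09).

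The ATF4 response list without synthetases held 17 genes, of which 16 were tested and Nupr1 was not. In unstimulated cells 14 of the 16 had negative genotype log2 fold changes (median -0.65), against 50.3% of all genes. Of the 16, 3 were called lower, against 3.35% of all genes. Asns, which makes asparagine, was at 173 and 204 normalized counts in WT and at 62.9 and 29.4 in deficient libraries (log2 fold change -2.10 ± 0.38 SE, adjusted p = 0.0189). Psat1, of serine synthesis, was at 1062 and 923 against 395 and 341 (-1.43 ± 0.19, adjusted p = 0.00593), and Mthfd2, of mitochondrial one-carbon metabolism, at 622 and 570 against 276 and 254 (-1.17 ± 0.23, adjusted p = 0.0225). The groups did not overlap in these 3 genes. Atf4 itself was at 3722 and 3489 in WT and at 1858 and 3240 in deficient libraries (-0.55 ± 0.24, adjusted p = 0.218) and was not called. In stimulated cells 0 of the 16 were called between genotypes (8 negative, 8 positive, median 0.09). On stimulation of deficient cells, 7 were called higher and 1 lower, against 13.0% and 12.0% of all genes. In WT cells 3 were called higher and 3 lower, against 10.2% and 13.1% of all genes. Atf4 was among those lower in WT cells (1400 and 1595 normalized counts after stimulation). Asns and Psat1 rose by 2.00 and 2.08 in deficient cells on the log2 scale, and by 0.53, not called, and 1.01 in WT cells.

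Some of these genes share exon bases with a neighbour on the opposite strand, and the sources used here differ on whether the libraries kept strand. In GENCODE vM1, 22.7% of the exon bases of Iars2 overlap Rab3gap2, 10.8% of Farsb overlap Sgpp2, 9.81% of Hars overlap Hars2, and 1.99% of Mars overlap Ddit3. Values of these genes may hold reads of the neighbour, and the other overlaps covered at most 6.74% of a member.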

How the data were processed

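RNA of sorted Treg cells was sequenced in 8 libraries, and the labels gave each one its genotype and stimulation. The deposited values have the unit of a signal, that is, the number of reads on each gene after the authors scaled it by a factor of the library. DESeq2 size factors departed from that scaling by at most 9.36e-06%. Whole reads were recovered from 99.9943% to 100% of the values of a library (within 0.005 normalized counts), 11851853 to 16306540 reads on genes per library, which is the depth behind each value, and 9.78% to 22.1% of them were on mt-Rnr2. No column of per-sample values was left unused.

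The sources used here differ on how the reads were made and mapped. The methods name an unstranded kit, Bowtie, NCBIM37, removal of PCR duplicates and counting with HTSeq, whereas the submitters' notes and protocol name a stranded kit, STAR 2.7 and mm10. Duplicate removal could leave at most 1 read per start and strand, 3164 on the 1582 exon bases of mt-Rnr2, where 1406479 to 3282964 reads were counted, so duplicates had not been removed from these values. Gene coordinates are therefore not given, and exon lengths are from GENCODE vM1 by symbol.

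For the 15419 genes whose mean reached 10 normalized counts, log2(normalized count + 1) entered 1 limma model of the 4 groups (version 3.58.1, eBayes with trend, R 4.3.3), so a fold change understates that of a gene with low counts. Tests were 2-sided, with Benjamini-Hochberg adjustment within each comparison over all genes tested. The statistics were tested on simulated data. The study's own calls were made with DESeq2, which is an alternative here because the values are normalized. Alternatives changed the pseudocount (0.1 or 5), the filter (any value above 0, or a mean of 100 and more), the scaling (equal totals, equal upper quartiles, quantiles), the test (edgeR 4.0.16 quasi-likelihood or DESeq2 1.42.0, run on the recovered reads), the libraries in the fit (the 4 of a comparison, or all but 1), the call rule, and a term for the replicate number. All members are reported by class. Full statistics are given for members called, and for the 3 members of each class with the largest change between genotypes, with others by range and count. The members, the related lists and this rule were chosen with earlier results of these data known. Members named for a small difference, or for a difference between the 2 deficient libraries, were picked after their values were seen. One gene of a related list and one promoter match are not reported here.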

Additional observations from a re-analysis of the deposited data

Results flagged for a closer look

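In 5 of the 36 genes both deficient libraries lay on one side of both WT libraries without stimulation and on the other side with it, against 5.37% of all genes tested. Cars, Aars, Nars and Sars were lower in unstimulated and higher in stimulated deficient libraries, and Mars2 was higher in unstimulated and lower in stimulated deficient libraries. The difference itself was tested as the interaction (limma, Benjamini-Hochberg over 15419 genes). It was 1.37 on the log2 scale for Cars (unadjusted p = 0.00103, adjusted p = 0.506), 1.16 for Aars (adjusted p = 0.556), 0.99 for Nars (adjusted p = 0.556), 0.79 for Sars (adjusted p = 0.569) and -1.41 for Mars2 (unadjusted p = 0.000765, adjusted p = 0.480). None passed the adjusted threshold. Mars2 ran from 340 and 417 normalized counts to 716 and 659 with stimulation in WT libraries, and from 798 and 696 to 541 and 486 in deficient libraries, so that the order of the genotypes was exchanged. It passed the threshold in 1 of 9 other fits (DESeq2, where 0.0843% of all genes were called in the negative direction). The unstimulated deficient libraries that enter all 5 values are also those with 9397 and 1283 normalized counts of macrophage markers, and the part of these transcripts was not tested.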

How the results depend on the processing

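No called value changed sign under any alternative run. In unstimulated cells, the 2 members called lower between genotypes became 0 with every gene above 0, with equal totals, with equal upper quartiles and with only the 4 libraries, 1 with edgeR, 4 where the mean had to reach 100, 5 with DESeq2 and 9 by the unadjusted p, and 0 to 8 with a library left out. The 1 member called higher (1.38%) became 0 with every gene above 0 (0.303%) and with the 4 libraries alone (0.538%). It became 2 under the mean of 100 (1.99%), with equal totals (1.56%), with upper quartiles (1.85%) and with quantiles (2.18%). It also became 2 with DESeq2 (3.38%) and by the unadjusted p. The cytosolic median was -0.36 (upper quartiles), -0.37 (quantiles) and -0.61 to -0.49 with a library left out, against 0.06 to 0.38 for the mitochondrial median, which was 0.40 with upper quartiles. For the genotype effect in stimulated cells, 1 member was called higher by the unadjusted p, and the medians with a library left out were -0.11 to 0.10 (cytosolic) and -0.08 to 0.05 (mitochondrial). For the interaction, 1 member (Mars2) was called negative with DESeq2 (0.0843%) and by the unadjusted p, and 6 were positive by the unadjusted p. Its cytosolic median was 0.38 (totals), 0.36 (upper quartiles), 0.30 (quantiles) and 0.43 to 0.62 with a library left out, and its mitochondrial median was -0.33 (totals), -0.35 (upper quartiles), -0.40 over the 13 genes that reached a mean of 100, and -0.49 to 0.11 with a library left out. For stimulation of WT cells, the 11 members called higher became 23 with equal totals and 2 to 15 with a library left out. 1 member, Eprs, was called lower with DESeq2 (14.6%), with the 4 libraries alone (17.8%) and by the unadjusted p. The cytosolic median was 0.93 with equal totals, 0.63 with quantile normalization and 0.41 to 0.45 with a library left out, and the mitochondrial one 1.07 with equal totals and 0.48 to 0.75 with a library left out. For stimulation of deficient cells, the 18 members called higher became 7 with the 4 libraries alone and 10 to 18 with a library left out, and the medians were 1.39 and 0.59 with equal totals and 0.80 to 1.01 and 0.16 to 0.52 with a library left out, the mitochondrial one 0.11 with upper quartiles and with quantiles. Where a library was left out, the lone library of its group was assumed to vary like the other groups. The cause of the shifts between fits was not tested.

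Replicate numbers 1 and 2 are shared by 3 groups. Same-numbered libraries deviated together (r across genes of 0.167 between the stimulated groups and 0.257 between the deficient groups), but with 2 numbers they are taken to share only a number. With the replicate number as a block, 0 members were called between genotypes in stimulated cells, as without it. Of all genes, 0.279% were then called lower and 0.292% higher. On stimulation of deficient cells 20 were then called higher, against 15.6% of all genes. The pools of 2 libraries limit every call, and the least abundant members, Aars2, Pars2 and Sars2, had 18 to 20 reads in their shallowest library.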
